A study of Arabidopsis thaliana with 18 samples.

Results

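Copper is a cofactor of plastocyanin, of copper/zinc superoxide dismutases, of laccases and of cytochrome c oxidase, and plants keep its free level very low. When copper runs short in Arabidopsis thaliana (thale cress), the transcription factor SPL7 binds promoters through GTAC cores and switches on a reductase and importers at the root surface. It also switches on microRNAs that lower the transcripts of dispensable copper proteins, and an iron superoxide dismutase takes over from the copper/zinc enzymes. The genes described here are 10 loci of this system: the importers COPT2, COPT1 and COPT6, the metal transporter ZIP2, the reductases FRO4 and FRO5, the chaperone CCH, the transporter YSL2, the microRNA locus MIR408 and SPL7. They were listed by locus, with earlier results of these libraries in view, and are 10 of the 33602 loci in the files. They were chosen by their FPKM levels in these same libraries, against control and between compounds, so those levels are a description here and carry no p-value.

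Roots of wild-type plants were taken after 14 days of growth from seed on agar with half-strength Murashige-Skoog medium. There were 6 groups of 3 libraries: a control with the solvent dimethyl sulfoxide (DMSO, below 0.01%), and 5 groups that each received one bisphenol, abbreviated BPA, BPB, BPE, BPF and BPS. A bisphenol is a pair of phenol rings on a bridge, which is isopropylidene in BPA, sec-butylidene in BPB, ethylidene in BPE, methylene in BPF and sulfonyl in BPS. Doses of 1, 3 and 10 mg/L are named for the study, but the dose behind each library is not given in the labels, so matched doses cannot be assumed between compounds. Nothing says that replicates were separate plates, so errors measure the spread between these libraries, which may be technical.

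Values are FPKM, fragments per kilobase of gene, scaled to the mapped total of the library. The step between low values gave library totals, in units of 1e6 fragments, of 15.9 to 22.2 with a median of 18.35. At this depth the control values of COPT2 stood for 1 or 2 fragments, so counting error alone is large for them. All 8 root markers (SHR, SCR, PLT2, WER, COBL9, CASP1, RHD6 and WOX5) were above 0 in each library, with summed levels of 146 to 293 FPKM. The summed level of 8 photosynthetic shoot markers was 44.5 to 115 FPKM in control, 209 to 386 in BPA, 427 to 429 in BPB, 184 to 225 in BPE, 93.5 to 231 in BPF and 137 to 327 in BPS. LHCB1.1 was the marker at 0, in 1 control library. In bulk roots, fewer cells of a type and less RNA per cell cannot be told apart. Log2 changes are differences of log2(FPKM + 1) with their standard error (SE) from a limma fit to all 18 libraries and the 19484 genes whose mean reached 1 FPKM. A gene counts as past the threshold at an adjusted p below 0.05 over those genes. The filter passed 9 of the 10 loci and left out FRO5. COPT2, FRO4 and MIR408 passed it through their BPF and BPE levels.

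The microRNAs of this system are shown because their precursors are read in these libraries and their targets are copper proteins. The mature sequences below are those annotated by RefSeq on TAIR10.1, in DNA letters 5′ to 3′, with bases 2 to 8, the seed, in capitals. The 3 seeds differ from each other.
miR408-3p (chr2:19319933-19319953, + strand): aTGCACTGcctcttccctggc
miR398c-3p (chr5:4694778-4694798, + strand): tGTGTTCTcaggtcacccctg
miR397b (chr4:7878730-7878750, - strand): tCATTGAGtgcatcgttgatg
The best ungapped match of each in the transcript of a listed target follows, with the bases that pair (G:U pairs included) in capitals. The plantacyanin ARPN, a blue copper protein, held a miR408-3p site with 19 of 21 bases in Watson-Crick pairs. Of 36958 annotated transcripts, 1 per gene, 2 matched this well. CSD1, a copper/zinc superoxide dismutase, held a miR398c-3p site with 17 such pairs, a match reached by 11 transcripts. LAC17, a laccase, held a miR397b site with 17 such pairs and 2 G:U pairs, reached by 9 transcripts.
ARPN site for miR408-3p: cCaAGGGAAGAGGCAGTGCAT
CSD1 site for miR398c-3p: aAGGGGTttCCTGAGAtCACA
LAC17 site for miR397b: aATCAATGcTGCACTTAATGA

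GTAC, a palindrome that reads the same on both strands, is the core of the copper response element. In windows from 250 bases before to 50 bases after the annotated gene start, 5 of the 10 loci held at least 1 GTAC and 4 held at least 2. Over 37897 such windows of the annotation, 39.7% held at least 1, 10.3% at least 2 and 0.5% at least 4. ZIP2, CCH and MIR408 held 4 each, YSL2 held 3 and COPT2 held 1. COPT1, COPT6, FRO4, FRO5 and SPL7 held none in this window. In the 1000 bases before the start, 7 of the 10 loci held at least 1 GTAC and 5 at least 2, where 81.9% and 53.1% of all such windows did. FRO4 held 1 there, FRO5 3 and MIR408 11. A match is a description of the letters and not a site. The 4 windows with 3 or 4 matches, the most among the 10 loci, are printed here from TAIR10.1 with GTAC in capitals. BPF had the highest mean of the 6 groups for these 4 loci. It also had the highest for COPT2, with 1 match, and for FRO4 and FRO5, with none.
ZIP2 (chr5:23992859-23993158, - strand): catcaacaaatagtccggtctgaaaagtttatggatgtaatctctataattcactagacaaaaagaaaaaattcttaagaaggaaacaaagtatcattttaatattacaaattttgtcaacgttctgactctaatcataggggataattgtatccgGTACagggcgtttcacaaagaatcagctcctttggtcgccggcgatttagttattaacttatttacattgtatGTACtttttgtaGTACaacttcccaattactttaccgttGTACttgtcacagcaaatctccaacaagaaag
CCH (chr3:20864678-20864977, - strand): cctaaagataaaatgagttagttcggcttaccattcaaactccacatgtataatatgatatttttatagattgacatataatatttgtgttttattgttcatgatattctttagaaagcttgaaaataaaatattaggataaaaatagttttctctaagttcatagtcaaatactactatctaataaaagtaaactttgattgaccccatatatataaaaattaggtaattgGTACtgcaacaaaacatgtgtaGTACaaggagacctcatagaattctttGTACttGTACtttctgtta
YSL2 (chr5:8323645-8323944, + strand): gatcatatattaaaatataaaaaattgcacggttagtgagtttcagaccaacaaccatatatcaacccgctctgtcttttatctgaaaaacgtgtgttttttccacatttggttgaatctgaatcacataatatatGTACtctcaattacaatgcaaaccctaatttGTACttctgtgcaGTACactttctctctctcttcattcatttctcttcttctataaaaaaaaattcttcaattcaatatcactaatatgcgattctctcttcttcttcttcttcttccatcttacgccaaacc
MIR408 (chr2:19319564-19319863, + strand): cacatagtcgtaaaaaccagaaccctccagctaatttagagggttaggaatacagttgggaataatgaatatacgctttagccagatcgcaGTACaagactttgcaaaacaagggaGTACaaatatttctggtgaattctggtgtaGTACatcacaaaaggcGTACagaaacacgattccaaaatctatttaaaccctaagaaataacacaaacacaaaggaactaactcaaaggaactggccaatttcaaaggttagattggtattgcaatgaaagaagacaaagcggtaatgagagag

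**Figure D1:**
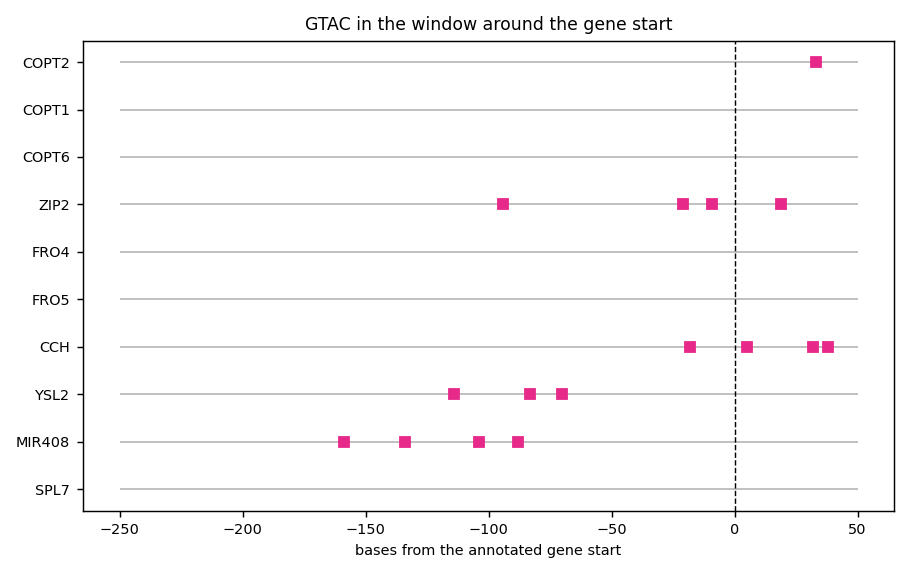
Positions of GTAC (squares) in the window from 250 bases before to 50 bases after the annotated start of each of the 10 genes, with the start at 0 (dashed line). ZIP2, CCH and MIR408 hold 4, YSL2 3 and COPT2 1, and the other genes hold none.

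In BPF roots the reductases, the inducible importer, the chaperone and the microRNA precursor stood at their highest levels, and the regulator SPL7 did not. Of the 9 tested loci, 6 were past the threshold in BPF against control, each higher (COPT2, ZIP2, FRO4, CCH, YSL2 and MIR408), where 1.39% of all tested genes were past it. The median log2 change of the 9 loci was 1.60, against 0.013 over all tested genes. BPE had 7 loci past it, each higher, beside 14.3% of genes. In BPA (10.4% of genes), BPB (36.6%) and BPS (21%) there were 2 each, ZIP2 in all of them, with COPT6 in BPA and BPB and CCH in BPS. These counts and the median are a description, since the loci were chosen by these values. COPT2, FRO4 and MIR408 also passed the filter through their BPF and BPE levels. All BPF libraries lay above all control libraries for 8 of the 10 loci (15% of tested genes). They lay above the 15 other libraries for ZIP2, FRO4, FRO5, CCH and MIR408, 5 of the 10 (0.144% of tested genes). FRO5 is in both counts but not among the tested genes. Of the 9 tested loci, 4 lay above the 15 others. Lying above all control libraries was not particular to BPF. BPE did so for the same loci other than FRO5 and MIR408, and for COPT1. BPA and BPS did so for COPT2, and BPA for FRO4. Every compound did so for COPT6, ZIP2 and CCH. The share of all tested genes is given for BPF alone, so no excess is read from the other groups.

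SPL7 (AT5G18830, chr5:6275895-6280681), the regulator itself, had 11.2, 14.9 and 12.0 FPKM in control libraries 1, 2 and 3. It had 12.0, 11 and 12.7 with BPA, 14.3, 15.5 and 16.5 with BPB, 15.1, 14.6 and 12.8 with BPE, 12.9, 11.6 and 11.7 with BPF and 12.5, 14.9 and 19.4 with BPS. Every group overlapped its neighbours in the order of means, from 15.6 in BPS to 11.9 in BPA. The log2 change in BPF was -0.06 ± 0.14 (SE), and no comparison put SPL7 past the threshold. SPL7 is known as a copper sensor that works as a protein, and protein was not measured.

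FRO4 (AT5G23980, chr5:8097978-8101330) reduces Cu(II) to Cu(I) at the root surface before uptake. Its control libraries held 0.0237, 0.0481 and 0.0698 FPKM, which stood for 1 to 3 fragments. With BPF it held 8.77, 11.9 and 5.70 FPKM, with BPE 0.157, 2.03 and 4.27, with BPA 0.157, 0.125 and 0.0971, with BPB 0.0278, 0 and 0.220 and with BPS 0.0642, 0.241 and 0.245. All BPF libraries lay above the 15 others, and BPE replicate 1 lay far below BPE replicates 2 and 3. The group means were 0.0472 ± 0.0231 (SD, n = 3) in control, 2.15 ± 2.06 (SD, n = 3) in BPE and 8.79 ± 3.10 (SD, n = 3) in BPF. The log2 change was 3.17 ± 0.38 (SE) in BPF and 1.34 ± 0.38 (SE) in BPE on the log2(FPKM + 1) scale, and 5.87 and 3.20 with a pseudocount of 0.1, since its control level is far below 1 FPKM.

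FRO5 (AT5G23990, chr5:8105461-8108642), its tandem neighbour and a reductase of the same kind, was listed at 0 in 13 of the 18 libraries. It held 6.08, 4.92 and 1.01 FPKM in BPF, 0.570 in BPE replicate 3 and 0.0271 in control replicate 1, which is about 1 fragment. The transcripts of FRO4 and FRO5 are 91.5% identical over 2249 aligned bases and share 5.11% of the 50-base words of FRO4, so reads in those stretches cannot be placed between them. Without the filter on low values, FRO5 had a log2 change of 2.12 ± 0.32 (SE) in BPF and was past the threshold there.

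COPT2 (AT3G46900, chr3:17268700-17269510) is a high-affinity copper importer that copper shortage induces in roots. It held 0.168, 0.0854 and 0.0826 FPKM in control, 0.371, 0.178 and 0.345 with BPA, 0.198, 0.0855 and 0.434 with BPB and 0.304, 0.171 and 0.695 with BPS. With BPF it held 8.56, 6.48 and 3.48 FPKM and with BPE 0.319, 3.00 and 3.96. BPF libraries lay above all libraries other than BPE replicate 3, and BPE replicate 1 lay within the range of BPA, BPB and BPS. The group means were 0.112 ± 0.0485 (SD, n = 3) in control, 2.43 ± 1.89 (SD, n = 3) in BPE and 6.17 ± 2.55 (SD, n = 3) in BPF. The log2 change was 2.62 ± 0.38 (SE) in BPF and 1.42 ± 0.38 (SE) in BPE, and 4.82 and 3.06 with a pseudocount of 0.1. In BPA, BPB and BPS it was 0.22, 0.15 and 0.30, none past the threshold.

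COPT1 (AT5G59030, chr5:23833493-23834745), a plasma membrane importer that works at root tips, did not share this order. Its highest values were 9.51, 14.2 and 10.7 FPKM in BPE, each above the 15 others. BPF had 8.21, 8.29 and 6.2 FPKM, which overlapped the 5.99, 7.68 and 5.63 of control. BPA had 7.91, 6.48 and 6.85, BPB 4.81, 6.72 and 5.63 and BPS 6.46, 3.05 and 3.80 FPKM. The log2 change in BPE was 0.74 ± 0.21 (SE). It lost its place past the threshold when libraries were brought to one median (0.67), after quantile normalization (0.63) and with any BPE library left out, or with the first or last control library left out (0.58 to 0.85).

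COPT6 (AT2G26975, chr2:11512727-11513695), another copper importer of the plasma membrane, was highest in BPB, with 7.52, 6.74 and 3.19 FPKM against 0.771, 0.940 and 0.758 in control. BPA had 3.32, 4.81 and 3.16, BPE 1.98, 2.23 and 2.14, BPF 1.79, 1.52 and 3.04 and BPS 2.09, 1.41 and 1.12 FPKM, so every compound's libraries lay above control. The log2 changes past the threshold were 1.84 in BPB, 1.37 in BPA and 0.77 in BPE (SE 0.25 each). The summed shoot markers also stood highest in BPB, at 427 to 429 FPKM, and lowest in control, at 44.5 to 115 FPKM. Their part in the COPT6 levels was not tested. With a pseudocount of 0.1 the changes were 2.6 in BPB, 2.05 in BPA and 1.27 in BPE. The BPE value, unlike those of BPA and BPB, dropped below the threshold under each of the 6 leave-one-out fits (0.75 to 0.82), under either rescaling, without the filter and with the replicate block.

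ZIP2 (AT5G59520, chr5:23991213-23992908), a divalent metal transporter of the ZRT/IRT-like family, was higher with every compound. Control held 1.03, 1.05 and 1.14 FPKM. BPF held 25.6, 47.0 and 44.0, BPE 8.40, 22.1 and 19.5, BPS 13.4, 16.0 and 16.3, BPB 11.6, 11.5 and 20.3 and BPA 6.40, 4.94 and 11.8 FPKM. All BPF libraries lay above the 15 others and all control libraries below them, while BPE, BPS, BPB and BPA overlapped in turn. The BPF mean of 38.9 ± 11.6 (SD, n = 3) was 36.2 times the control mean of 1.07 ± 0.0563 (SD, n = 3), with a log2 change of 4.22 ± 0.34 (SE), with rank 3 among all tested genes in BPF. The other log2 changes were 2.99 in BPE, 2.96 in BPS, 2.85 in BPB and 1.99 in BPA. With a pseudocount of 0.1 they ran from 2.64 in BPA to 5.0 in BPF.

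YSL2 (AT5G24380, chr5:8323895-8326705) is a transporter of the yellow stripe-like family, whose members move metals bound to nicotianamine. It held 7.64, 7.87 and 6.18 FPKM in control, 25.7, 22.8 and 20.9 with BPF and 13.2, 21.6 and 19.0 with BPE. BPA had 10.6, 7.05 and 9.54, BPB 6.73, 7.08 and 11.1 and BPS 7.33, 8.76 and 11.7 FPKM. BPF and BPE overlapped each other, and both lay above all libraries of the other 4 groups. The BPF mean of 23.2 ± 2.42 (SD, n = 3) was 3.20 times the control mean of 7.23 ± 0.914 (SD, n = 3) (log2 change 1.55 ± 0.22) and the BPE mean 2.48 times (1.18 ± 0.22). YSL2 overlaps AT5G24390 on the other strand over 99 bases, and that gene held 2.88 to 5.96 FPKM over all libraries.

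CCH (AT3G56240, chr3:20863139-20864727), a copper chaperone known from senescing tissue and copper recycling, was the most abundant of the 10 per length. Control held 90.4, 89.5 and 84.1 FPKM and BPF 361, 384 and 361 FPKM. BPE held 137, 236 and 261, BPS 159.5, 144 and 164, BPB 95.8, 103 and 159.6 and BPA 98.6, 91.5 and 135 FPKM. All BPF libraries lay above the 15 others, and all 3 control libraries lay below the 15 others. The BPF mean of 369 ± 13.4 (SD, n = 3) was 4.19 times the control mean of 88.0 ± 3.45 (SD, n = 3) (log2 change 2.05 ± 0.23), the BPE mean 2.40 times (1.20 ± 0.23) and the BPS mean 1.77 times (0.82 ± 0.23). The BPS value fell short of the threshold without control replicate 1, control replicate 3 or BPS replicate 3 (0.78 to 0.84), and the count of loci past it in BPS was then 1.

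MIR408 (AT2G47015, chr2:19319814-19320031) is read here as its precursor, not as the mature microRNA. Control held 0.600, 0.740 and 0.800 FPKM and BPF 5.61, 4.07 and 3.16 FPKM. BPE held 0.610, 0.950 and 1.66, BPS 0.735, 1.05 and 1.06, BPB 0.655, 0.784 and 0.753 and BPA 0.379, 0.272 and 0.571 FPKM. All BPF libraries lay above the 15 others, and BPA lay below all control libraries. On the annotated 218 bases, BPF values stood for 12.7 to 19.7 fragments and control values for 2.4 to 3.3. The log2 change in BPF was 1.60 ± 0.19 (SE), and 2.40 with a pseudocount of 0.1. The locus lies within AT2G47020 on the other strand, which held 3.63 to 4.99 FPKM in BPF and 4.63 to 6.11 in control, and the strand setting of the authors' counting is not given in the sources used here.

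**Figure D2:**
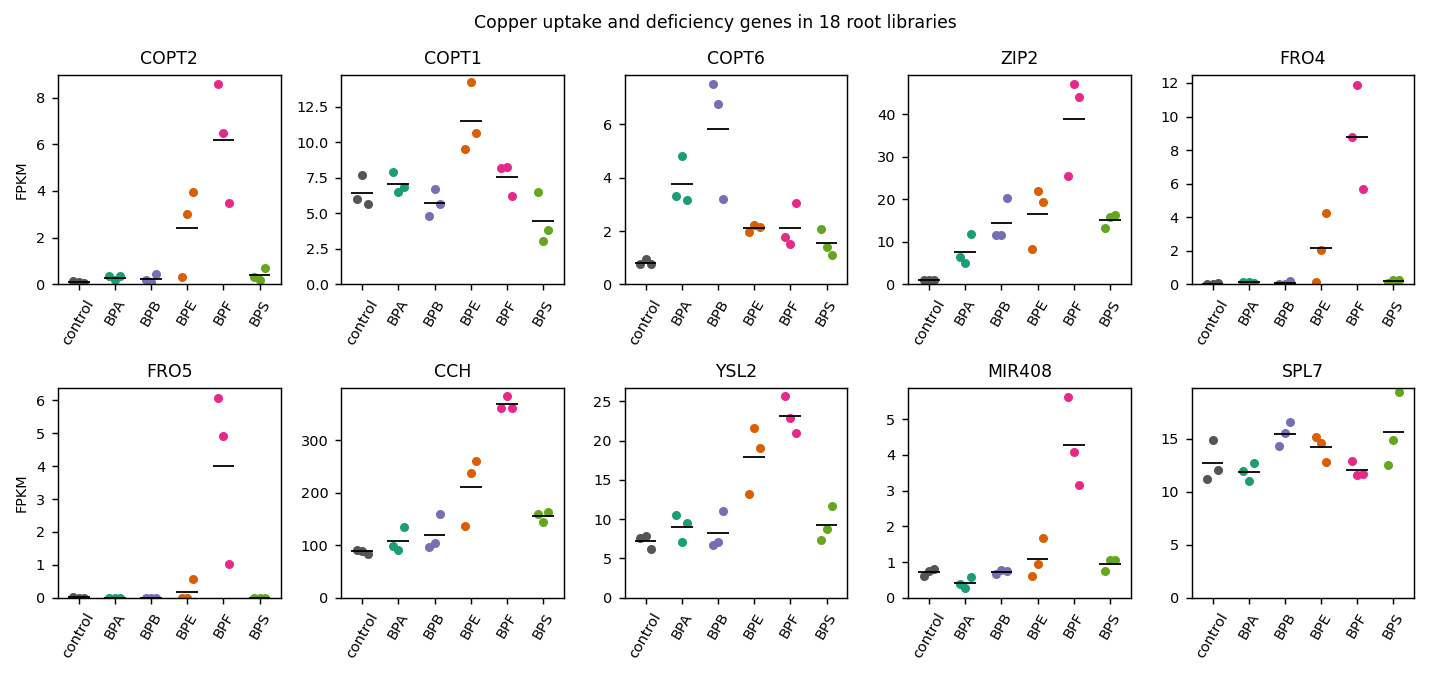
FPKM of the 10 genes in each of the 18 libraries (points, 3 per group in replicate order) with the group mean (line), each panel on its own linear axis. BPF is highest for COPT2, ZIP2, FRO4, FRO5, CCH, YSL2 and MIR408, BPE for COPT1 and BPB for COPT6, and the groups of SPL7 overlap.

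The BPE mean stood between BPF and the other groups for most of these genes, and its libraries were not alike. They overlapped the next lower group for COPT2, ZIP2, FRO4, FRO5, CCH and MIR408, but not for YSL2. The BPE and BPS means were close for ZIP2 (16.6 and 15.2 FPKM) and MIR408 (1.07 and 0.948 FPKM). For FRO4, COPT2 and CCH, BPE replicate 1 held 0.157, 0.319 and 137 FPKM, against 2.03, 3.00 and 236 in replicate 2. Without BPE replicate 1 the log2 changes against control were 1.93 for FRO4, 2.00 for COPT2, 1.49 for CCH, 3.39 for ZIP2 and 1.38 for YSL2. With BPE replicate 3 left out, FRO4 was at 0.84 and COPT2 at 1.05, neither past the threshold. COPT2 also dropped below it when BPE replicate 2 or control replicate 1 or 3 was left out (1.20 to 1.45), and FRO4 when BPE replicate 2 or any control library was (1.24 to 1.35). FRO4 was also below the threshold when just the 6 libraries of BPE and control were fitted (1.34). The SE from all 18 libraries is pooled over the 6 groups and does not show the wider spread of FRO4 within BPE. The count of 7 loci in BPE was 3 when BPE replicate 2 or 3, or control replicate 1 or 3, was left out, and 5 when BPE replicate 1 or control replicate 2 was. In BPF the count was 6 in each of the 6 leave-one-out fits.

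Direct comparisons between compounds are given here with doses not known to match. The differences themselves do not use the control libraries. Their SE, the threshold and the filter rest on all 18 libraries, control included. BPF against BPA had 6 of the 9 loci past the threshold, each higher, where 0.0667% of all tested genes, 13 in number, were past it. These were FRO4 (log2 difference 3.07), COPT2 (2.40), ZIP2 (2.22), MIR408 (1.89), CCH (1.78) and YSL2 (1.28). FSD1, CITF1, CSD2 and CCS, listed copper genes described next, were among the other 7 genes. Of these, CITF1 reached the filter through its BPF and BPE levels. The count of 6 is a description, since the loci were chosen by these levels. COPT2, FRO4 and MIR408 also passed the filter through their BPF and BPE levels. BPF against BPE had 5 loci higher (16% of genes past the threshold), FRO4 with the largest difference (1.84). YSL2 was not past it there (0.37, 95% interval half-width 0.46). BPS against BPF had 5 loci lower (3.04% of genes), COPT2, FRO4, CCH, YSL2 and MIR408, from -3.0 for FRO4 to -1.24 for CCH. BPF against BPB had 6 loci higher and COPT6 lower (-1.09; 28% of genes). BPE against BPB had 5 higher and COPT6 lower (31.3% of genes). BPE against BPA had CCH and YSL2 higher (0.93 and 0.90; 2.63% of genes). BPS against BPE had COPT2, COPT1, FRO4 and YSL2 lower (39.4% of genes). COPT6 was lower in BPS than in BPA (-0.91; 18.2% of genes past the threshold) and than in BPB (-1.38; 9.24%). BPB against BPA had 9.94% of genes past the threshold, and COPT6 (0.47) and ZIP2 (0.86) were not among them. Over the 10 pairs of compounds, 37 of 90 combinations of locus and pair were past the threshold (15.8% over all genes), and 16 when each pair was fitted on its own 6 libraries.

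**Figure D3:**
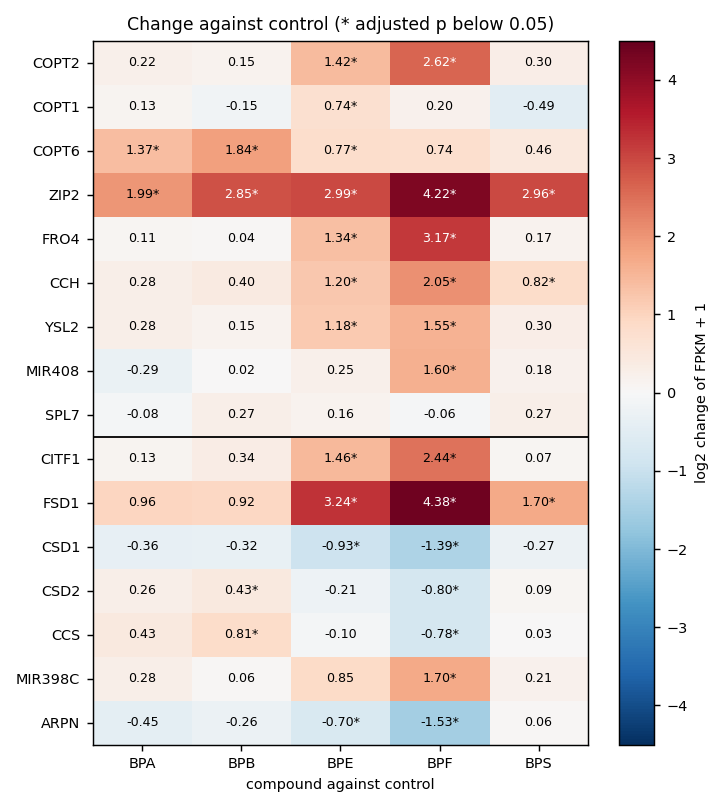
Log2 change of FPKM + 1 against control for the 9 tested genes (above the line) and 7 other copper genes (below it), by compound, with the value in each cell and a star where the adjusted p over all tested genes was below 0.05. COPT2, FRO4, MIR408, CITF1 and MIR398C reached the filter through their BPF and BPE levels, so their stars there support nothing. The BPF column runs from 4.38 for FSD1 to -1.53 for ARPN.

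A list of 69 other genes of copper handling and of the same transporter families was compared in the same fit, and 52 of them passed the filter. The list was drawn up by locus from knowledge of the pathway, with earlier results known. Past the threshold were 5 higher and 4 lower in BPF, 9 higher and 8 lower in BPE, 15 higher and 5 lower in BPB, 9 higher and 2 lower in BPS, and 5 higher and 4 lower in BPA. These counts were 17.3% of the 52 genes in BPF, 32.7% in BPE, 38.5% in BPB, 21.2% in BPS and 17.3% in BPA. Over all tested genes the shares were 1.39%, 14.3%, 36.6%, 21% and 10.4% in the same order. In BPB and BPS the counts were thus near the share over all genes. CITF1 is in the BPF and BPE counts and MIR398C in the BPF count. Both reached the filter through their BPF and BPE levels, so those places support nothing. The list's median log2 change was 0.080 in BPF, -0.0078 in BPE, 0.13 in BPB, 0.095 in BPS and -0.024 in BPA, against 0.013, 0.040, 0.16, 0.091 and 0.038 over all tested genes. The BPF count of 9 was 4 to 6 when any library other than BPF replicate 1 was left out. The BPE count of 17 was 8 to 11 when the first or last control library, or either of the first 2 BPE libraries, was left out. The BPB count of 20 was 13 without control replicate 1 and 12 without BPB replicate 2. The BPS count of 11 was 7 without control replicate 1. The BPA count of 9 was 3 or 4 when the first or last control library was left out, 6 without BPA replicate 1, and 1 without BPA replicate 2.

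The second regulator of this system, CITF1 (AT1G71200), a basic helix-loop-helix factor induced by copper shortage, was listed at 0 in all control libraries. It held 6.14, 3.25 and 4.29 FPKM in BPF and 0.432, 2.41 and 3.25 FPKM in BPE. BPA, BPB and BPS libraries held at most 0.385 FPKM. BPE replicate 1 was again the lowest of its group. CITF1 reached the filter through its BPF and BPE levels, so these values are a description with no p-value, although it is counted among the genes higher in both groups.

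Superoxide dismutases remove superoxide with copper and zinc or with iron at the active site, and 6 were tested. In BPF, FSD1 was higher and CSD1 and CSD2 lower, while CSD3, FSD2 and FSD3 were not past the threshold (0.14, -0.12 and 0.15). In BPB, CSD2, CSD3 and FSD3 were all higher (0.43, 0.52 and 0.76). The FSD3 call was lost after quantile normalization (limma adjusted p = 0.0532) and in 2 leave-one-out fits, and the CSD3 call in 1. The iron enzyme FSD1 (AT4G25100) held 4.19, 6.33 and 7.80 FPKM in control, 168, 162 and 108 in BPF and 27.7, 93.9 and 103 in BPE. It rose in BPF (log2 change 4.38 ± 0.43, limma adjusted p = 0.000372), in BPE (3.24, adjusted p = 0.000834) and in BPS (1.70, adjusted p = 0.0121). The cytosolic copper/zinc enzyme CSD1 (AT1G08830) fell from 606, 552 and 648 FPKM to 234, 204 and 248 in BPF (log2 change -1.39 ± 0.19, limma adjusted p = 0.00266). In BPE it had 445, 265 and 266 FPKM, also a fall (-0.93, adjusted p = 0.00804). In BPA CSD1 had 479, 482 and 441 FPKM, below all control libraries but not past the threshold. CSD2 (AT2G28190), the plastid copper/zinc enzyme, fell from 101, 102 and 103 to 62.2, 49.2 and 64.5 FPKM in BPF (log2 change -0.80, limma adjusted p = 0.0246). In BPB, where the shoot markers were highest, CSD2 rose to 130.4, 139 and 144 FPKM (0.43, adjusted p = 0.0377). CCS (AT1G12520), the chaperone that loads copper into these enzymes, fell in BPF from 33.4, 38.4 and 31.4 to 20.5, 15 and 24.4 FPKM (-0.78, limma adjusted p = 0.0432) and rose in BPB to 60.4, 67.1 and 55.7 FPKM (0.81, adjusted p = 0.00230). The BPF calls of CSD2 and CCS were lost without any of control replicates 1, 2 and 3 or BPF replicates 2 and 3 (limma adjusted p 0.0618 to 0.168). That of CCS was also lost with the replicate block (0.0549), without the filter (0.0591) and on the 6 libraries alone (0.0673). The BPB call of CSD2 was lost with any 1 of the 6 libraries left out (0.0517 to 0.0929) and with libraries brought to one median (0.169), and the BPS call of FSD1 without control replicate 1 (0.0594). CSD1 overlaps AT1G08840 on the other strand.

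**Figure D4:**
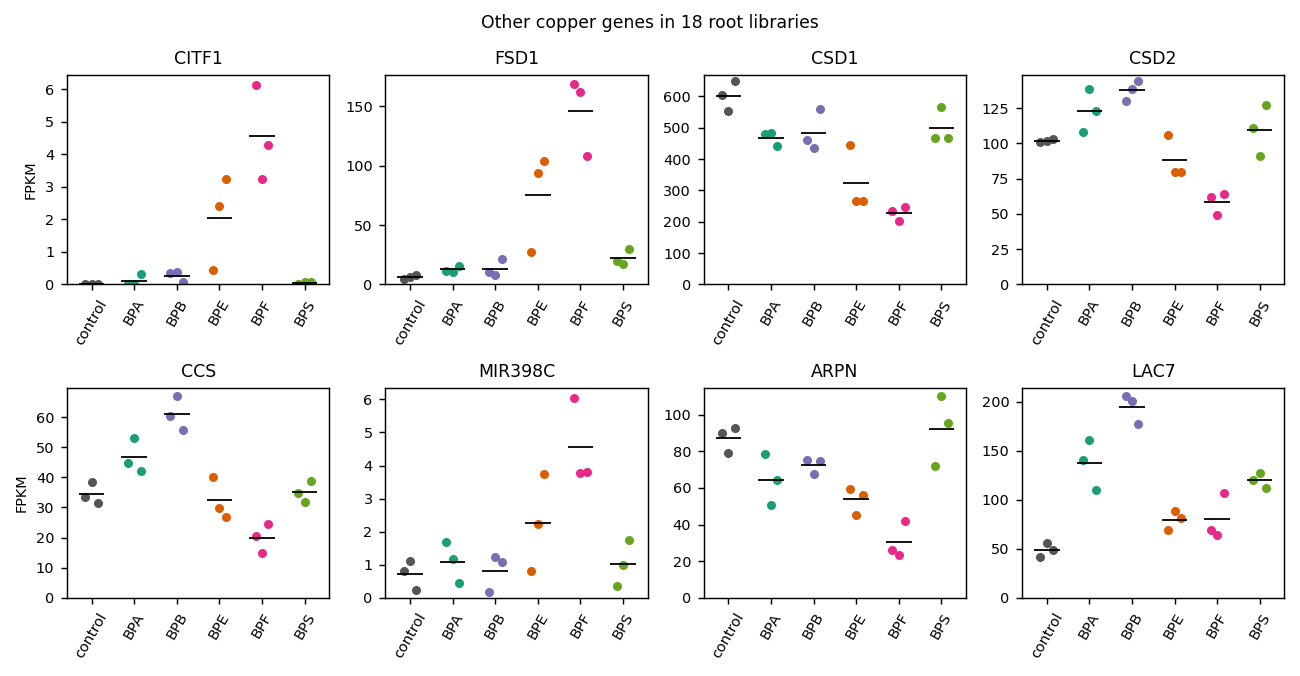
FPKM of 8 other copper genes in each of the 18 libraries (points, 3 per group in replicate order) with the group mean (line), each panel on its own linear axis from 0. In BPF, CITF1, FSD1 and MIR398C are highest and CSD1, CSD2, CCS and ARPN lowest, while LAC7 is highest in BPB.

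The other microRNA precursors of the system were mostly near 0. MIR398C (AT5G14565) held 0.798, 1.12 and 0.244 FPKM in control, 0.810, 2.23 and 3.73 in BPE and 6.06, 3.77 and 3.81 in BPF (log2 change 1.70). It reached the filter through its BPF and BPE levels, so these values are a description with no p-value. It is still counted among the genes higher in BPF. That place was lost when any 1 of the 6 libraries was left out, without the filter and with a pseudocount of 0.1. MIR397B (AT4G13555) was below the filter and listed at 0 in control, and held 4.54, 3.78 and 3.47 FPKM in BPF, 1.42 and 3.30 in BPE replicates 2 and 3 and 0.542 in BPA replicate 1. MIR857 (AT4G13554), its neighbour and also below the filter, held 2.13, 1.09 and 1.15 FPKM in BPF and was listed at 0 in control. MIR398A and MIR398B were listed at 0 in all libraries.

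CSD1, CSD2 and CCS, described above, are also known targets of miR398. Among the 10 genes of a separate list of microRNA targets, which leaves these out, the BPF threshold was passed by ARPN (AT2G02850), the plantacyanin whose miR408-3p site is printed above. It fell from 90.2, 79.1 and 92.6 FPKM in control to 26.1, 23.5 and 41.8 in BPF (log2 change -1.53 ± 0.21, limma adjusted p = 0.00320). In BPE it had 59.5, 45.4 and 56.4 FPKM (-0.70, adjusted p = 0.0413), a call lost without any 1 of the 6 libraries (0.0520 to 0.150). The laccases, copper oxidases of the cell wall, did not follow one order. LAC7 (AT3G09220) held 41.5, 55.5 and 49.0 FPKM in control and 206, 201 and 178 in BPB, and rose in BPB (1.99, limma adjusted p = 1.14e-05), BPA (1.47), BPS (1.3) and BPE (0.70), the last call lost when any library other than control replicate 2 was left out (limma adjusted p 0.0533 to 0.103). LAC3 (AT2G30210), with a miR408-3p match of 17 pairs, rose in BPS from 46.1, 51.4 and 46.5 to 75.5, 101 and 128 FPKM (1.03, limma adjusted p = 0.00293). LAC12 (AT5G05390) fell in BPB from 2.14, 2.21 and 1.70 to 0.629, 0.192 and 0.390 FPKM (-1.11, limma adjusted p = 0.00871). LAC17, whose miR397b site is printed above, held 25.7, 21.7 and 25.9 FPKM in control. In BPF it held 19.9, 25.1 and 14.1 FPKM and was not past the threshold. It was lower in BPE (-1.05) and BPB (-0.73), calls each lost in 4 leave-one-out fits. The BPB call was also lost without the filter, with the replicate block and on the 6 libraries alone.

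Copper pumps, chaperones and binding proteins follow. PAA2 (AT5G21930), the thylakoid copper pump, rose in BPB from 1.43, 2.18 and 1.34 to 4.93, 6.72 and 4.28 FPKM (1.25, limma adjusted p = 0.000314) and in BPA (0.90, adjusted p = 0.0143) beside shoot marker sums of 427 to 429 and 209 to 386 FPKM, whose part was not tested. The BPA call was lost without BPA replicate 2 or control replicate 1 or 3 (0.0641 to 0.0790). COX17-2 (AT1G53030), a chaperone of cytochrome c oxidase, rose in BPE, BPB and BPA (log2 change 0.77, 0.64 and 0.60). The metallothionein MT1C (AT1G07610), a small metal-binding protein with a close copy in MT1A, held 113, 117 and 96.3 FPKM in control and rose to 310.5, 387 and 305 in BPE (limma adjusted p = 0.000435) and to 252, 219 and 296 in BPF (adjusted p = 0.00890). The BPF call was lost without BPF replicate 3 or control replicate 1 (0.0747 and 0.0505). Reads of close copies can be hard to divide, and MT1A was listed at 0.326 to 0.455 FPKM throughout. MT2A (AT3G09390) rose in BPE, BPB and BPA (log2 change 2.17, 1.74 and 1.43) and MT2B (AT5G02380) fell in the same groups (-0.76, -0.55 and -0.62). The BPA calls of COX17-2, MT2A and MT2B, the BPB call of MT2B and the BPE calls of COX17-2 and MT2B were each lost in 2 to 5 of 6 leave-one-out fits. The BPB call of COX17-2 was lost after the median shift (limma adjusted p = 0.0549) and quantile normalization (0.0530). Its BPA call was lost under both (0.0578 and 0.0650), without the filter (0.0559) and with the replicate block (0.0562). The BPA and BPB calls of MT2B were lost on the 6 libraries alone (0.0798 and 0.0878).

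Relatives of the uptake genes were compared with them. Of 14 listed ZIP relatives of ZIP2, 9 were tested. ZIP11 (AT1G55910) rose in BPB and BPS (1.29 and 1.23), ZIP4 (AT1G10970) in the same groups (1.22 and 0.76), and ZIP6 (AT2G30080) in BPB, BPS and BPE (1.04, 0.78 and 0.56). The iron importer IRT1 (AT4G19690) fell in BPE from 3.04, 2.21 and 4.23 to 0.144, 0 and 0 FPKM (-1.96, limma adjusted p = 0.00255). The ferric reductase FRO2 (AT1G01580), which works with IRT1, fell in BPE too (-1.85, limma adjusted p = 0.000958). FRO3 (AT1G23020), a mitochondrial member of the family, rose in BPB, BPE and BPA (0.90, 0.75 and 0.73). YSL3 (AT5G53550) rose in BPF, BPB and BPS (0.88, 0.78 and 0.61). The BPF and BPS calls of YSL3 were lost in 5 and 6 of 6 leave-one-out fits and also without the filter and under either rescaling (limma adjusted p 0.0543 to 0.122). The BPB call of YSL3 was lost after quantile normalization (0.0515). The BPE call of ZIP6 was lost in 5 leave-one-out fits, after quantile normalization (0.0512) and without the filter (0.0599). The calls of FRO3 were lost in 1 leave-one-out fit (BPE, without control replicate 3) and 2 (BPA, without BPA replicate 2 or control replicate 3).

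The genes most like COPT2, FRO4 and CCH were sought by the mean absolute difference over the 18 libraries, after centring each gene's log2(FPKM + 1) on its own mean. CITF1 was the closest to COPT2 (mean difference 0.23) and to FRO4 (0.28), and the second closest to CCH (0.35). AT2G25625, for which the reference gives no symbol, was the second closest to COPT2 (0.37) and FRO4 (0.51) and the closest to CCH (0.31). Its group means were 0.349 FPKM in control, 0.675 in BPA, 0.389 in BPB, 2.50 in BPE, 4.07 in BPF and 0.682 in BPS. MIR398C was the third closest to all 3 (0.44, 0.54 and 0.37). CITF1 and MIR398C, like COPT2 and FRO4, reached the filter through their BPF and BPE levels. AT2G25625 had group means above 1 FPKM in BPE and BPF alone. The filter itself favours nearness among such genes, so their nearness is a description and supports nothing. FSD1 was the fourth closest to FRO4 (0.56). Next came AT5G38900 and MT1C for COPT2 (0.57 and 0.58), AT3G62990 for FRO4 (0.72), and CYP72C1 and AT5G40690 for CCH (0.41 each). ZIP2 had no such neighbour: its closest gene was CHX17 (AT4G23700), a cation exchanger, at 0.68, followed by EXL4, AT5G62150, ANNAT7 and AT5G14650 (0.74, 0.74, 0.74 and 0.76).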

How the data were processed

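Per the file headers, the authors deposited gene values as FPKM, 1 table per library. The tools named per the submitters' processing notes are StringTie 1.3.0, HISAT2 2.0.4 and edgeR, and the build is TAIR10; roles, settings, strand handling and annotation release are not given in the sources used here. The library kit was strand-specific, per the labels. FPKM were not rescaled, and no count test was run. Fragment totals were taken as those at which most low values stood for 1 fragment, refined to the highest share of whole values (55.7% to 61.9% within 0.02); that share was thus maximised, and the totals are estimates. A first search had returned doubled totals and was replaced.

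The 19484 of 33602 loci whose mean reached 1 FPKM were fitted as log2(FPKM + 1) with limma 3.58.1 in R 4.3.3 (intensity trend, 1 coefficient per group, 18 libraries), with two-sided tests and Benjamini-Hochberg adjustment per comparison (15 in all). The fit was tested on simulated data. The members and lists were chosen with earlier results of these data known. Other genes named are those past the threshold against control, up to 4 per list by smallest adjusted p, with CITF1, FSD1, CSD1, CSD2 and CCS always, and the 5 genes most like each of COPT2, ZIP2, FRO4 and CCH. LAC17 is named for its printed site. FSD3, CSD3, COX17-1 and HCC2, which the rule also names, changed in BPB (FSD3, CSD3 and HCC2, higher) or BPS (COX17-1, lower). The HCC2 call was lost under either rescaling and in 3 leave-one-out fits. The COX17-1 call was lost in 4 leave-one-out fits, that of FSD3 in 2 and after quantile normalization, and that of CSD3 in 1. Sequences and positions come from RefSeq on TAIR10.1, read by locus; the 1000-base motif count, the search for microRNA sites (13 pairs of microRNA and target), the sequence identities and the overlapping loci were chosen after values were seen. Sites of miR398c-3p in CSD2 and of miR857 in LAC7 did not stand apart from other transcripts in this ungapped search. Alternatives were quantile normalization, a median shift, no intensity trend, no filter, a pseudocount of 0.1, a replicate block, a fit on just the 6 libraries of a comparison, and each library left out.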

Additional observations from a re-analysis of the deposited data

How the results depend on the processing

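Of 45 log2 changes of the 9 tested loci against control, 19 were past the threshold, and no alternative reversed the sign of one of those. Among the 26 others, 6 changed sign under some alternative, 4 of them in BPB, where bringing libraries to one median lowered all changes by 0.18. Loci past the threshold in BPE numbered 5 after quantile normalization or the median shift, and 3 to 5 with 1 library left out, against 7. In BPS they numbered 1 to 3 with 1 library left out. Over pairs of compounds the count of 37 was 16 with only the 6 libraries compared. Counts of the other copper genes with 1 library left out ran from 1 to 10 in BPA, 12 to 18 in BPB, 8 to 17 in BPE, 4 to 9 in BPF and 7 to 13 in BPS. Same-numbered libraries of different groups were about as alike as differently numbered ones in their deviations from group means. Of their correlations, 15 of 45 were above 0.1 (median -0.004, range -0.57 to 0.65), against 28 of 90 (median 0.013, range -0.75 to 0.54). With the replicate block, BPE had 6 loci past the threshold, BPF 6, and BPA, BPB and BPS 2 each, and 36 combinations over pairs of compounds. A pseudocount of 1 is large beside control levels near or below 1 FPKM. The sizes of change of COPT2, FRO4, MIR408, COPT6 and ZIP2 thus depend on the pseudocount. The control values of COPT2, FRO4 and MIR408 also rest on few fragments. The cause of these differences was not tested.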
